A study of Homo sapiens with 12 samples.

Results

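The 10 genes described here encode subunits of the Polycomb repressive complexes: EZH1, EZH2, EED, SUZ12, RBBP4 and JARID2 for PRC2, and BMI1, RNF2, RING1 and PCGF2 for PRC1. They were taken by name, as 10 of 20136 protein-coding genes. Each was read for H3K4me3 and IgG peaks within 1, 2.5 and 10 kb of its annotated 5′ end and of any of its transcript starts. Polycomb complexes keep developmental genes silent. PRC2 methylates histone H3 at lysine 27, a mark that EZH2 or EZH1 writes when bound to EED and SUZ12. PRC1 places ubiquitin on histone H2A through RNF2 or RING1, paired with a PCGF protein such as BMI1 or PCGF2. H3K4me3 is a mark of active and poised promoters and is laid down by the opposing Trithorax group of enzymes.

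CUT&RUN, in which an antibody directs a nuclease to its target in permeabilized cells, was done in BON1, a human pancreatic neuroendocrine tumor line. The control cells were BON1/TGL/pQ. They were compared with BON1/TGL/HA-Bcl-xL cells, which overexpress Bcl-xL, an anti-apoptotic protein, with an HA tag. Both were grown in medium with puromycin, and 500000 cells were used per condition. Whether either line is a clone or a pool is not given in the sources used here. Each line was profiled in triplicate with an H3K4me3 antibody and with a rabbit anti-mouse IgG as background. Of the 12 samples 11 are used, and the first H3K4me3 replicate of HA-Bcl-xL cells was not analysed here. That leaves 3 control and 2 HA-Bcl-xL H3K4me3 libraries and 3 IgG libraries of each line. Values below are given in the order of replicates 1, 2 and 3 for control and 2 and 3 for HA-Bcl-xL. The labels do not say that replicates came from separate cultures, so the spread between them may be technical.

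The H3K4me3 lists held 10247 to 17711 peaks in control and 15497 and 16379 in HA-Bcl-xL libraries, with medians of 9 to 12 fragments at the summit. The control IgG lists held 1674 to 2113 peaks and the HA-Bcl-xL IgG lists 244 to 268. No read totals are given, so the lowest background in each list was taken as a rough guide to depth. It was 0.0478 to 0.0705 fragments per base for H3K4me3, 0.0333 to 0.0433 for control IgG and 0.0706 to 0.0897 for HA-Bcl-xL IgG. Of 12 neuroendocrine markers, 5 (CHGB, SYT1, NEUROD1, SCG2 and SCG3) were called within 1 kb of the 5′ end by every H3K4me3 library, and 8 by at least 1. Of 9 markers of other cell types, 0 had a peak within 2.5 kb of any start in any H3K4me3 library.

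More of the Polycomb genes had an H3K4me3 peak near a start in at least 1 library than in every library, as was so over all genes. Within 1 kb of the 5′ end, 6 of 10 had a peak in at least 1 of the 5 H3K4me3 libraries, beside 48.2% of all protein-coding genes. RBBP4 alone had it in all 5, beside 21.3% of all genes. Within 2.5 kb, 8 of 10 had a peak in at least 1 library (53.5% of all genes) and 3 in all 5, namely RBBP4, SUZ12 and JARID2 (25.6%). Within 10 kb of any start all 10 had a peak in at least 1 library (65.3%).

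**Figure D1:**
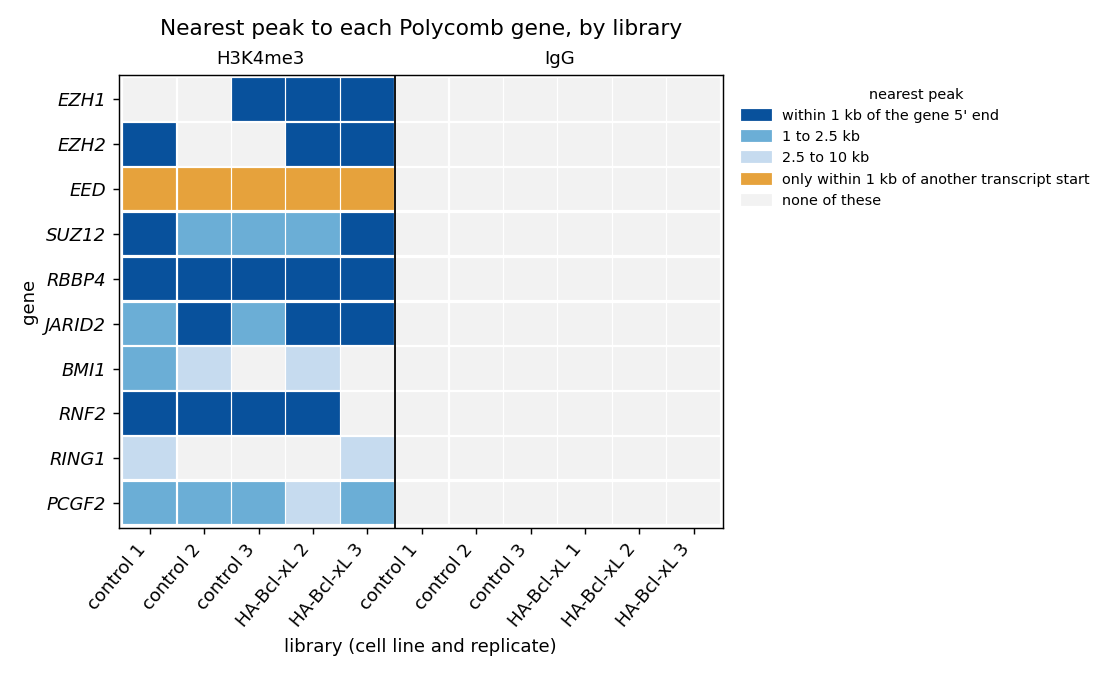
Nearest peak of each Polycomb gene (rows) in each of the 11 libraries (columns), coloured by its distance from the gene's 5′ end or, in orange, as found only at another transcript start. RBBP4 is within 1 kb in all 5 H3K4me3 libraries, EED has peaks only near an internal start, and no IgG library has a peak in any class.

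No IgG library had a peak within 10 kb of any start of any of the 10 genes, in either line. Over all protein-coding genes, 9.06% had an IgG peak within 10 kb of any start in at least 1 IgG library, and 0.785% within 1 kb of the 5′ end. In control cells 3.33 ± 0.577 members were called for H3K4me3 within 1 kb (SD, n = 3), beside a mean of 33.6% of all genes. In HA-Bcl-xL cells 5 ± 0 members were called (SD, n = 2), beside 37.3%. In both lines 0 members had an IgG peak (n = 3 each). RBBP4 and RNF2 were called in every control H3K4me3 library without an IgG peak, as were 22.8% of all genes. EZH1, EZH2, RBBP4 and JARID2 were so called in HA-Bcl-xL cells, beside 31.5% of all genes. The lowest backgrounds of the HA-Bcl-xL IgG lists were above those of the H3K4me3 lists, at the closest 0.0706 against 0.0705. Those of the control IgG lists were lower. Each is a minimum over its list, and the IgG lists are far shorter, so IgG depth stays uncertain.

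The 71 H3K4me3 peaks within 10 kb of any start of the members had a median width of 111 bp, beside list medians of 112 to 128 bp. They rested on a median of 13 fragments at the summit (3 to 42). By the authors' -log10 p, their median percentile rank within their own lists was 49. Of the 71 peaks, 8 ranked above 90, in the windows of RBBP4 and PCGF2. Those in the RBBP4 window lay within 9 bp of a start of the neighbouring gene ZBTB8OS. In the PCGF2 window, those ranked 95.8 and 96.3 lay 1 bp from the start of the neighbouring gene PSMB3. The peak ranked 95.2 lay at -1215 bp from the PCGF2 5′ end. Of the 71 summits, 31 were intronic in every coding transcript of the gene that spans them. Another 33 lay outside the coding transcripts, 6 in an exon of some and an intron of others, and 1 in an exon.

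EZH1 and EZH2 are the alternative catalytic subunits of PRC2. EZH1 (5′ end at chromosome 17, position 40897067 of GRCh37, minus strand) had a peak just inside the gene in 3 libraries. Its bases under peaks within 1 kb were 0, 0 and 80 in control, against 132 and 125 in HA-Bcl-xL. Both HA-Bcl-xL values were above every control value, and the groups did not overlap. The summits lay at 93, 102 and 72 bp, with 4, 11 and 8 fragments, in an intron of all 9 coding transcripts. The sequence below spans chr17:40896927-40897028 (GRCh37, minus strand) and is shown because EZH1 was the only member with a summit within 250 bp of its 5′ end in at least 3 libraries. Capitals mark the 80 bases under the peak of all 3 libraries.
EZH1 start: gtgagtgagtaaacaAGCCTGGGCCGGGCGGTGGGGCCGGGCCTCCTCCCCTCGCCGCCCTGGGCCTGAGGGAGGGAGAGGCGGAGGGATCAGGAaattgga

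The stretch is 69.6% G and C. Control replicates 1 and 2 lacked any EZH1 peak within 10 kb.

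EZH2 (5′ end at chromosome 7, position 148581413, minus strand) was covered in control replicate 1 and in both HA-Bcl-xL libraries. Within 2.5 kb it had 372, 0 and 0 bases under peaks in control, against 164 and 443 in HA-Bcl-xL. The 2 groups overlapped, because control replicate 1 lay between the HA-Bcl-xL values. Peaks over the start itself occurred in control replicate 1 (-15 to 73 bp) and HA-Bcl-xL replicate 3 (-62 to 33 bp), with 14 and 10 fragments. All 3 libraries had a peak further in, with summits at 1366, 1039 and 1188 bp. In HA-Bcl-xL replicate 2 it was the only EZH2 peak, and it did not overlap those of the other 2 libraries. The shared intronic stretch of control replicate 1 and HA-Bcl-xL replicate 3, chr7:148579908-148580147, is printed with the 208 bases under both peaks in capitals. The 250 bases before the 5′ end, chr7:148581414-148581663, follow with CCAAT on either strand in capitals. Both are GRCh37, minus strand.
EZH2 intron: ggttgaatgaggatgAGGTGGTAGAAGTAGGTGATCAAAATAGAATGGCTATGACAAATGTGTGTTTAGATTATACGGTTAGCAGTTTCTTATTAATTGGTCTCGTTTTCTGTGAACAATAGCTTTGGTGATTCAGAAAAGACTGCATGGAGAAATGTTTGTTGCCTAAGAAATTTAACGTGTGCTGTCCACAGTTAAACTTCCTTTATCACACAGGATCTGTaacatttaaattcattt
EZH2 promoter: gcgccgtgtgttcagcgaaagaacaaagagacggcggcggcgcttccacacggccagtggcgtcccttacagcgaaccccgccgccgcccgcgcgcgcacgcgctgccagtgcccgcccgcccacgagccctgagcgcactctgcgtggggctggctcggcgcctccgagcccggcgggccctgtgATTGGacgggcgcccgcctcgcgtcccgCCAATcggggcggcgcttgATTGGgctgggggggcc

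The intronic stretch was 35.4% G and C and held 3 CpG, while the 250 bases before the start were 75.6% and held 38. The CCAAT pentamer, counted on both strands, began at -64 (as ATTGG), -36 (as CCAAT) and -17 bp (as ATTGG).

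EED, SUZ12 and RBBP4 form the core around the catalytic subunit: EED binds trimethylated lysine 27, SUZ12 holds the complex together and RBBP4 is a histone chaperone. EED had no peak within 10 kb of its annotated 5′ end (chromosome 11, position 85912254, plus strand) in any library. That end belongs to a gene model whose next transcript start lies 43541 bp further on, at position 85955795. Within 1 kb of any start, EED had 311, 235 and 93 bases under peaks in control, against 406 and 109 in HA-Bcl-xL. All 5 libraries thus had peaks within 1 kb of the internal starts, and the groups overlapped. Of all genes, 26.5% had a peak within 1 kb of any start in all 5 libraries. The 11 EED peaks held 8 to 19 fragments and fell at 5 separate places, with at most 4 of them in 1 library. Their summits lay 199 to 929 bp from a start of ENSG00000288809, a lncRNA gene read from the opposite strand, so the mark at EED and at that gene cannot be told apart. The only peaks of control replicate 3 and HA-Bcl-xL replicate 3 lay 224 and 394 bp from the nearest EED start. The 2 stretches below lie on either side of the first cluster of internal starts, which begins at position 85955795, with summits in an intron of every coding transcript that spans them. They are chr11:85955479-85955586, under the peaks of control replicate 3 and HA-Bcl-xL replicate 2, and chr11:85956868-85957003, under those of control replicates 1 and 2 and HA-Bcl-xL replicate 2. Both are GRCh37, plus strand, with the bases under all of the named peaks in capitals.
EED upstream: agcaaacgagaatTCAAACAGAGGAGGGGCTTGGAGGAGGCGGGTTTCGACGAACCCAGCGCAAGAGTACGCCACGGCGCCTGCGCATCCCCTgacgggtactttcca
EED downstream: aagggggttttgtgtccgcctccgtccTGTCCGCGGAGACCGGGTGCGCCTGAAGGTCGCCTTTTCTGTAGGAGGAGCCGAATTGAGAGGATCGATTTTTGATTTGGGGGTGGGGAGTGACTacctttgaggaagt

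They were 60.2 and 56.6% G and C. The 2 kb centred on the annotated 5′ end held 40.2%, in decile 1 of protein-coding genes by G and C content, and the 2 kb centred on position 85955795 held 51.2%. In that decile, a mean of 3.86% of genes per library had a peak within 1 kb.

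SUZ12 (5′ end at chromosome 17, position 30264026, plus strand) had a peak in its intron in all 5 libraries. Within 2.5 kb it had 328, 217 and 88 bases under peaks in control, against 141 and 250 in HA-Bcl-xL. The groups overlapped. The intronic summits lay at 1274, 1219, 1318, 1254 and 1280 bp in that order of libraries, with 13, 10, 7, 13 and 7 fragments. A separate peak near the start occurred only in control replicate 1 (-25 bp) and HA-Bcl-xL replicate 3 (-318 bp). The intronic stretch chr17:30265204-30265443 (GRCh37, plus strand) is printed because every H3K4me3 library covered it, with the 88 bases under all 5 peaks in capitals.
SUZ12 downstream: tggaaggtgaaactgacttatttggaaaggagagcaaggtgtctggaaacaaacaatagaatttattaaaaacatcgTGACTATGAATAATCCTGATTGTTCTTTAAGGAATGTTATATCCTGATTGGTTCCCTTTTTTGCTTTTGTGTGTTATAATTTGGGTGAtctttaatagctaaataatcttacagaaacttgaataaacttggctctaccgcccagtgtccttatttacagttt

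The stretch was 33.3% G and C with 2 CpG, against 58.3% in the 2 kb centred on the 5′ end. SUZ12 has a partial copy, the pseudogene SUZ12P1 on the same chromosome. SUZ12P1 also had peaks, with summits 550 to 1249 bp from its own start in the 3 control lists and in HA-Bcl-xL replicate 2. How reads that match both were placed is not given in the sources used here, so values at SUZ12 are uncertain.

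RBBP4 (5′ end at chromosome 1, position 33116743, plus strand) had the strongest peaks of the 10 genes. Within 1 kb it had 390, 668 and 420 bases under peaks in control, against 315 and 397 in HA-Bcl-xL. The groups overlapped, and control replicate 2 was the widest. Its highest peak lay at -574, -598 and -568 bp in control and at -606 and -576 bp in HA-Bcl-xL libraries. It held 42, 30, 30, 36 and 42 fragments and ranked at 98.5, 96.4, 98.5, 98.7 and 99.3. Each of these summits was within 9 bp of a transcript start of ZBTB8OS, a gene read from the opposite strand. The mark at RBBP4 and at ZBTB8OS cannot be told apart at this distance. Over the RBBP4 start itself, only HA-Bcl-xL replicate 2 had a peak, from 0 to 72 bp with 13 fragments.

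JARID2 is an accessory subunit that helps bring PRC2 to chromatin. Peaks lay on both sides of its 5′ end (chromosome 6, position 15246300, plus strand). Within 2.5 kb it had 79, 400 and 83 bases under peaks in control, against 319 and 418 in HA-Bcl-xL. Control replicate 2 lay between the HA-Bcl-xL values, so the groups overlapped. An upstream peak occurred in control replicate 2 and both HA-Bcl-xL libraries, at -614, -614 and -631 bp, with 10, 16 and 15 fragments. An intronic peak occurred in all 5 libraries, at 1610, 1657, 1735, 1658 and 1568 bp. These 5 summits lay 830 to 997 bp from a start of JARID2-AS1, a lncRNA gene read from the opposite strand. That start was nearer than any JARID2 start, so the mark at the 2 genes cannot be told apart there. Within 1 kb the values were 0, 90 and 0 in control and 221 and 137 in HA-Bcl-xL libraries, which did not overlap. Of the 221 bases in HA-Bcl-xL replicate 2, 111 were upstream and 110 lay under a separate intronic peak at 558 bp, with 13 fragments. The upstream stretch chr6:15245572-15245713 (GRCh37, plus strand) is printed because it was covered in every library called within 1 kb, with the 90 bases under all 3 peaks in capitals.
JARID2 upstream: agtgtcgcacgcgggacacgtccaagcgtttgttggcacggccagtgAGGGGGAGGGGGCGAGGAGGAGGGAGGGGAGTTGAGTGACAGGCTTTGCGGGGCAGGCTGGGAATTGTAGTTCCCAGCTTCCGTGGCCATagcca

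The upstream peaks lay 438 to 455 bp from the start of JARID2-DT, a lncRNA gene, and were 64.2 to 64.9% G and C. The intronic peaks within 2.5 kb were 35.4 to 38.8%. One more intronic peak, in HA-Bcl-xL replicate 3 alone, lay at 257778 bp with 3 fragments and was 46.5% G and C.

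**Figure D2:**
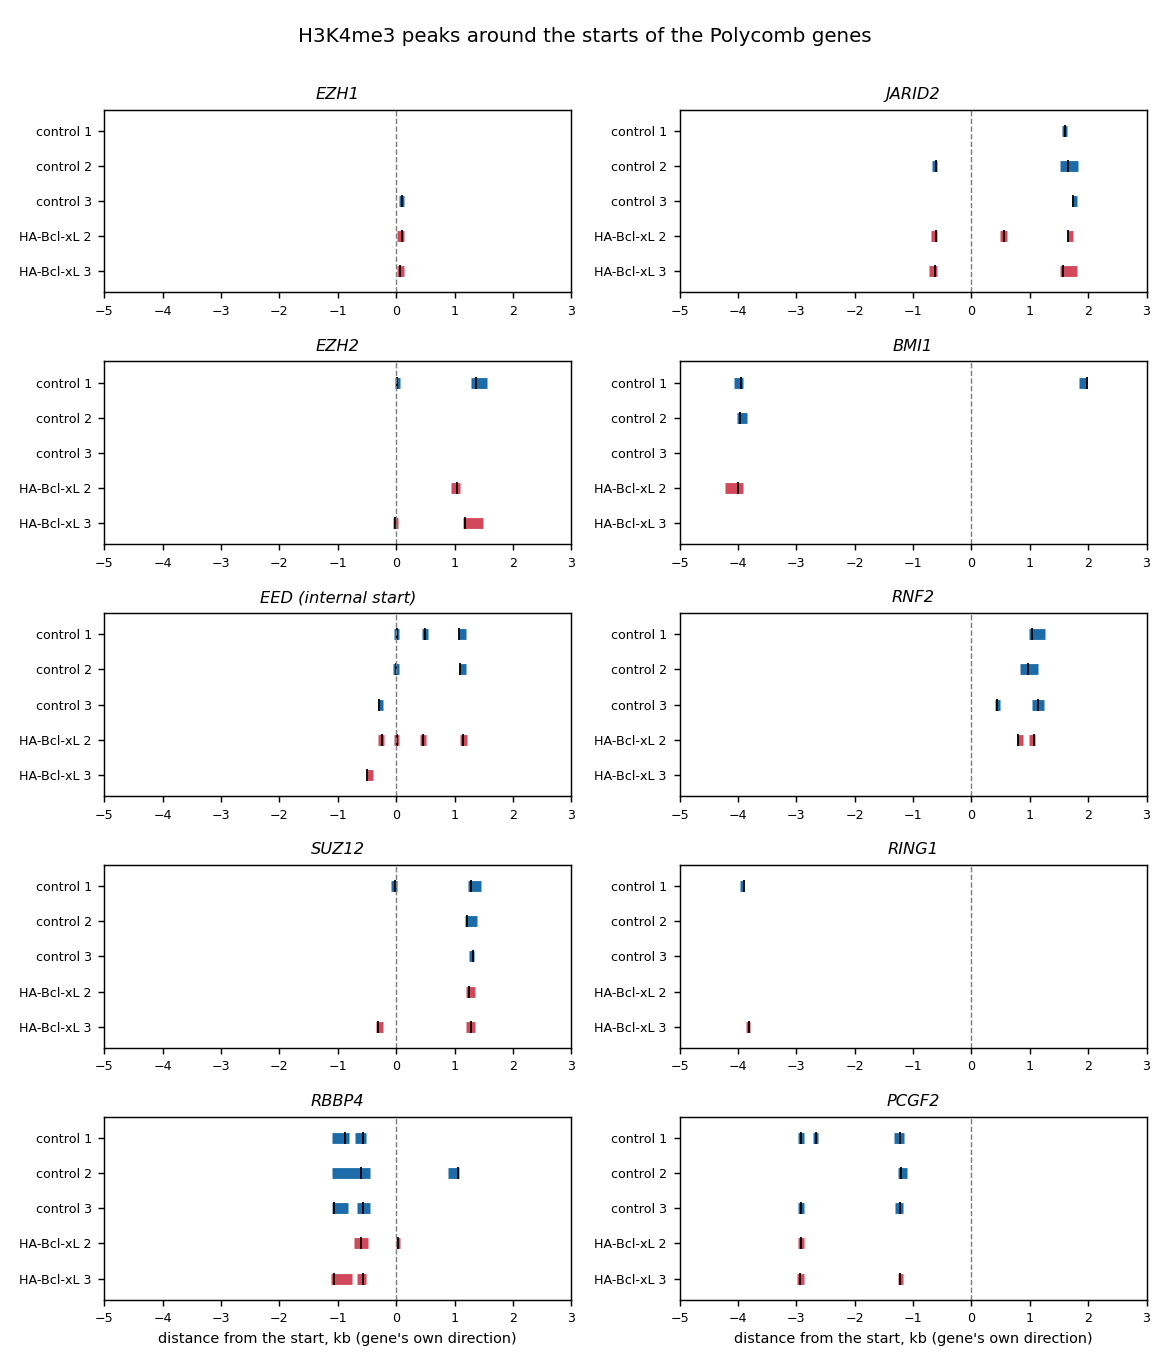
H3K4me3 peaks around each Polycomb gene, as distance in kb from the annotated 5′ end (dashed line), or from position 85955795 for EED, with upstream to the left. Bars are peaks, black ticks are summits, control libraries are blue and HA-Bcl-xL libraries red; SUZ12 and JARID2 have a bar inside the gene in all 5 libraries, between 1174 and 1830 bp.

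RNF2 and RING1 are the alternative catalytic subunits of PRC1. RNF2 (5′ end at chromosome 1, position 185014658, plus strand) was marked in 4 of 5 libraries. Within 2.5 kb it had 278, 313 and 302 bases under peaks in control, against 205 and 0 in HA-Bcl-xL. Every control value was above both HA-Bcl-xL values, and HA-Bcl-xL replicate 3 had no peak within 10 kb. The highest-ranked summits lay at 1040, 976, 1138 and 1078 bp, in an intron of all 3 coding transcripts, with 12, 7, 8 and 10 fragments. Near the 1 kb limit of the narrowest window, RNF2 peaks began 981 and 991 bp from the 5′ end in control replicate 1 and HA-Bcl-xL replicate 2, just inside it. The corresponding peak of control replicate 3 began at 1037 bp, just outside, and that library was called through a second peak at 407 bp. The stretch chr1:185015605-185015844 (GRCh37, plus strand) is printed because the 4 peaks share 62 bases of it, in capitals.
RNF2 downstream: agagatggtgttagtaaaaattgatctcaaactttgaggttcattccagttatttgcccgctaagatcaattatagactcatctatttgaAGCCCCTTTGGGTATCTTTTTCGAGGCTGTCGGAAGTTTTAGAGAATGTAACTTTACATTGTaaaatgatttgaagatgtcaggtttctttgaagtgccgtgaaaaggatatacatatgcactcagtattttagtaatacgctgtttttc

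It was 35% G and C, while the 2 kb centred on the 5′ end held 58.5%.

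For RING1 (5′ end at chromosome 6, position 33176277, plus strand) no library had a peak within 2.5 kb of a start. Within 10 kb it had 158, 0 and 0 bases under peaks in control, against 0 and 76 in HA-Bcl-xL. These peaks were near other genes: summits at -3897 and -3818 bp lay 52 and 4 bp from a transcript start of HSD17B8, and the summit at -7623 bp lay at the start of SLC39A7. RING1 lies in the major histocompatibility region, which also exists as alternative contigs in the authors' genome. The 5 H3K4me3 libraries had 75 to 135 peaks on those contigs, which no window here covers. A missing peak at RING1 is therefore uncertain.

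BMI1 and PCGF2 are PCGF partners of the PRC1 catalytic subunits. BMI1 (5′ end at chromosome 10, position 22610028, plus strand) lacked a peak within 1 kb throughout. Within 2.5 kb it had 143 bases under peaks in control replicate 1, with the summit at 1979 bp and 11 fragments, and 0 in the other 4 libraries. Within 10 kb it had 298, 173 and 0 bases in control, against 316 and 0 in HA-Bcl-xL. The peaks at -3951, -3958 and -3997 bp held 20, 13 and 16 fragments and lay 346 to 367 bp from a transcript start of COMMD3. The annotation also has a read-through gene, COMMD3-BMI1, whose 5′ end is 4711 bp from that of BMI1.

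PCGF2 (5′ end at chromosome 17, position 36906070, minus strand) was marked upstream of its start. Within 2.5 kb it had 166, 148 and 136 bases under peaks in control, against 0 and 88 in HA-Bcl-xL. Every control value was above both HA-Bcl-xL values. The summits lay at -1215, -1213, -1227 and -1216 bp with 35, 19, 14 and 21 fragments. The stretch chr17:36907177-36907388 (GRCh37, minus strand) is printed because 4 of 5 libraries covered it, with the 88 bases under all 4 peaks in capitals.
PCGF2 upstream: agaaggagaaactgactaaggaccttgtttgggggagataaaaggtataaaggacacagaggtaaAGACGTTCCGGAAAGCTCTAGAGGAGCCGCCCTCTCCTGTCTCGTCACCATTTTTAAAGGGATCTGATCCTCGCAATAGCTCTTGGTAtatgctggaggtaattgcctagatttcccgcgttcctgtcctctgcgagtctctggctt

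It was 48.6% G and C. A further peak at -2911 to -2930 bp, in control replicates 1 and 3 and both HA-Bcl-xL libraries, lay within 13 bp of the start of PSMB3, a proteasome subunit gene on the other strand. It held 21 to 32 fragments, and in HA-Bcl-xL replicate 2 it was the only PCGF2 peak within 10 kb of the 5′ end.

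**Figure D3:**
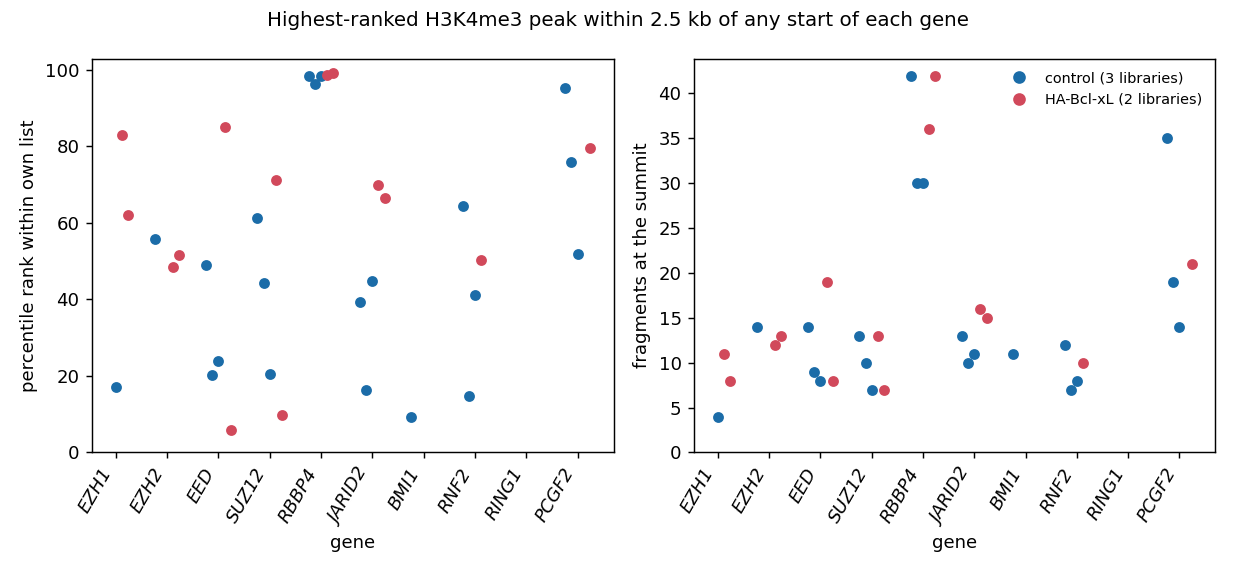
Highest-ranked H3K4me3 peak within 2.5 kb of any start of each gene in each library: left, its percentile rank within its own list by the authors' -log10 p; right, the fragments at its summit. RBBP4 stands at ranks 96.4 to 99.3 in all 5 libraries, and RING1 has no point.

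Between the lines, the number of members with a peak within 1 kb was 4, 3 and 3 in control, against 5 and 5 in HA-Bcl-xL. The difference of 1.67 members was larger than the pooled SD between libraries, 0.471, and was not tested over the list. With equal list lengths the counts were 3, 2 and 3 against 5 and 3, and at a -log10 q of at least 5 they were 3, 1 and 1 against 5 and 3, which overlapped. The difference was 0 within 2.5 kb, where the counts were 7, 5 and 6 against 6 and 6, and 0.83 within 10 kb. Over all genes within 1 kb, the shares were 40.4, 32.4 and 28.2% in control and 38.1 and 36.5% in HA-Bcl-xL libraries, which overlapped. The higher member count rested on EZH1, EZH2, SUZ12 and JARID2, found in a larger share of HA-Bcl-xL libraries, as were 17.2% of all genes. RNF2 was found in a larger share of control libraries (9.67%). For SUZ12 the only calls were those of control replicate 1 and HA-Bcl-xL replicate 3. Its larger share thus came from the unequal number of libraries in the lines. Any gene called in 1 library of each line counts towards the 17.2% in the same way. No member was called throughout HA-Bcl-xL but never in control (0.844% of all genes), or the reverse (0.248%).

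Bases under peaks within 1 kb did not overlap between the lines for EZH1 and JARID2, both higher in HA-Bcl-xL, beside 4.78% of all genes in that direction. No member was lower in that way (1.78% of all genes). Within 2.5 kb, EZH1 was higher (5.13% of all genes) and RNF2 and PCGF2 lower (2.14%). For EZH1 the means within 1 kb were 128.5 in HA-Bcl-xL and 26.7 in control libraries, and for JARID2 179 and 30. Each had a two-sided exact permutation p of 0.2, taken as double the smaller tail, which is the smallest that 2 libraries against 3 allow and the value that any gene without overlap gets. The same holds for RNF2 (102.5 and 297.7) and PCGF2 (44 and 150) within 2.5 kb, also with an exact permutation p of 0.2. HA-Bcl-xL replicate 3 alone lacked RNF2, and replicate 2 alone lacked the PCGF2 peak.

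**Figure D4:**
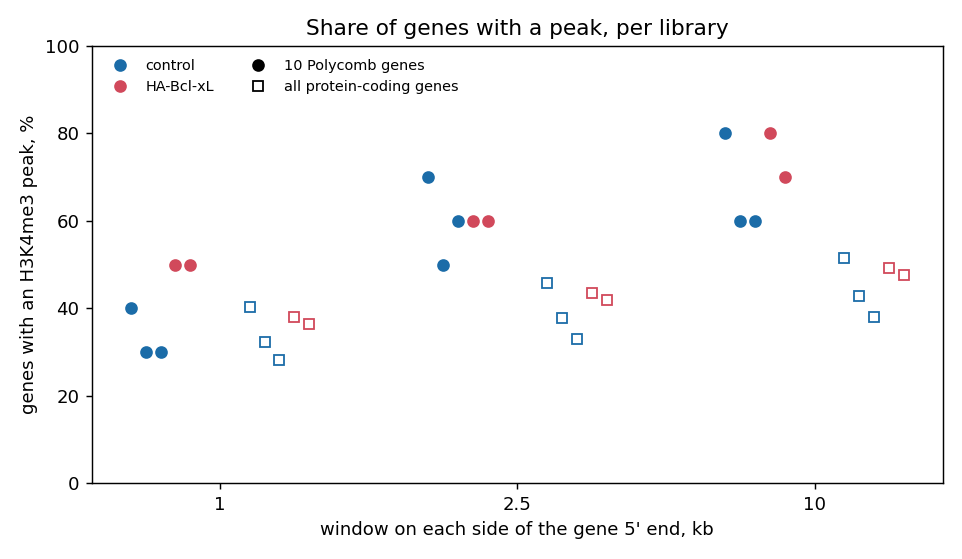
Share of the 10 Polycomb genes (filled circles) and of all 20136 protein-coding genes (open squares) with an H3K4me3 peak within 1, 2.5 and 10 kb of the 5′ end, 1 point per library. Within 1 kb the members reach 50% in both HA-Bcl-xL libraries and 30 to 40% in control libraries, and within 2.5 kb the lines overlap.

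Width was compared with limma on log2 bases within 1 kb for the 4289 genes with a peak in all 5 libraries, which among the members left RBBP4. No gene passed a Benjamini-Hochberg adjusted p of 0.05 (0% of those tested). The smallest adjusted value was 0.834, and 210 genes had an unadjusted p under 0.05. With 5 libraries, the count of 0 does not show that widths were alike. With 1 library left out, 1 gene passed without control replicate 2, 3 without HA-Bcl-xL replicate 2 and 9 without HA-Bcl-xL replicate 3, and no member was among them. RBBP4 had a log2 difference, HA-Bcl-xL minus control, of -0.56 (SE 0.451, limma adjusted p 0.988). Within 2.5 kb, where 5151 genes were tested and 0 passed (0%), the log2 difference of JARID2 was 1.29 (SE 0.604, adjusted p 0.931 by limma). There SUZ12 had -0.09 (SE 0.465) and RBBP4 -0.68 (SE 0.471), with limma adjusted p of 0.996 and 0.987. At any start within 1 kb, where 5330 genes were tested and 0 passed (0%), the log2 difference of EED was 0.02 (SE 0.525, limma adjusted p 0.996).

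Several members were marked about 1 kb or more inside the gene, with or without other peaks nearer the start. A summit 900 to 1800 bp downstream of the 5′ end in at least 3 of 5 libraries was found for EZH2, SUZ12, JARID2 and RNF2, 4 of 10, beside 8.51% of all genes. A summit within 250 bp in at least 3 libraries was found for EZH1 alone, beside 19.1% of all genes. A summit 1800 to 900 bp upstream was found for PCGF2, beside 2.01%. These distances were chosen after the summits had been seen, so the counts are a description. The downstream peaks of these 4 genes held few G and C bases: 34.3 to 48.8% at EZH2, 31.8 to 34.2% at SUZ12, 35.4 to 38.8% at JARID2 and 34.0 to 41.5% at RNF2. Peaks with a summit within 250 bp of the 5′ end, found at EZH1, EZH2, SUZ12 and RBBP4, held 67.1 to 79.2%. Peaks with a summit 250 to 900 bp away ranged from 37.3% at 558 bp in JARID2 to 80.0% at 437 bp in RNF2, and the SUZ12 peak at -318 bp held 50.5%. Over each list, the median was 46.4 to 49.4% for peaks whose summit lay 900 to 1800 bp downstream of the nearest coding 5′ end. It was 63.0 to 63.6% for peaks within 250 bp of it and 56.2 to 57.0% for all peaks. Base composition thus moved with distance in the lists as a whole, and its part in the members' pattern was not tested.

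**Figure D5:**
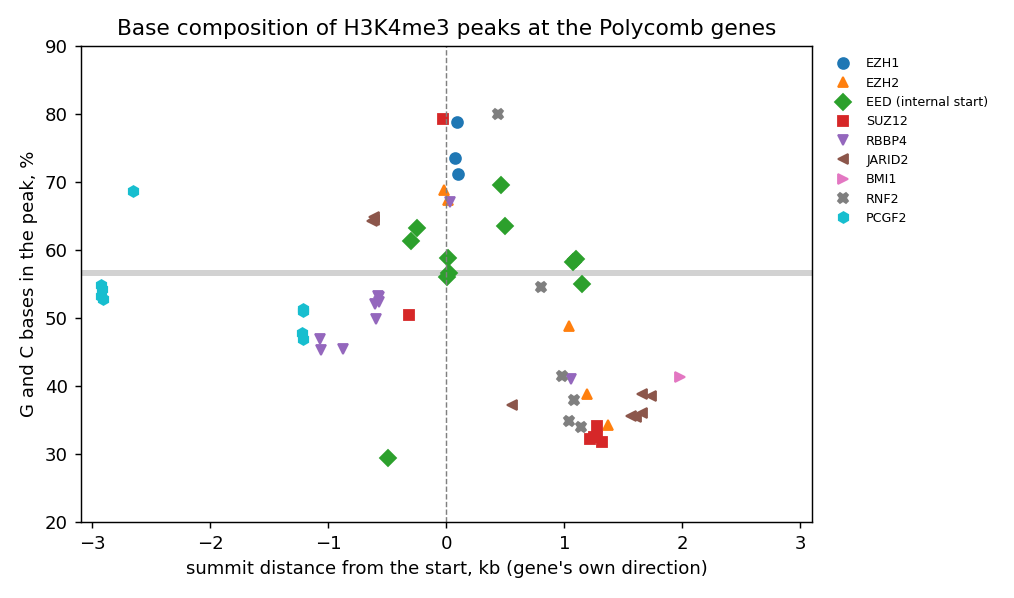
Share of G and C bases in each H3K4me3 peak up to 3 kb from the annotated 5′ end (for EED, from position 85955795), against the distance of its summit; each point is 1 peak in 1 library. The grey band is the range of the 5 lists' medians, 56.2 to 57.0%; the points of SUZ12, JARID2 and RNF2 beyond 0.9 kb lie below it.

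Promoter composition also went with how often genes were called at all. Within 1 kb, a mean of 46.5% of genes per library had a peak in decile 6 of genes by G and C content, where RBBP4 and JARID2 fall. It was 26.3% in decile 10, where EZH2 (72.0%) and BMI1 (70.6%) fall. Over the 250 bases before the 5′ end and the first 50 bases from it, counted on both strands, CCAAT occurred at EZH2, SUZ12, RBBP4 and JARID2, 4 of 10, beside 35.8% of all promoters. GGGCGG occurred at every member except EED (52.2%), and TATAAA at EED and JARID2 (10.9%). TTTGGCGC occurred at EZH2 (0.765%) and TTTCCCGC at SUZ12 (1.97%). CCGGAAGT (5.07%) and TGACGTCA (2.28%) occurred at 0 members.

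Among 47 other Polycomb genes, 19, 15 and 10 had a peak within 1 kb in control, against 21 and 14 in HA-Bcl-xL. Of these 47, 7 (14.9%) had it in all 5 libraries beside 21.3% of all genes, and 31 (66.0%) in at least 1, beside 48.2%. The highest mean ranks were those of PCGF1 (97.7), the PCGF subunit of a variant PRC1, ASXL2 (97.1), a partner of the deubiquitinase BAP1, and FBRS (94.8). E2F6, a transcription factor of a variant PRC1, was the only 1 of the 47 called within 1 kb of the 5′ end in the HA-Bcl-xL pair and never in control, beside 0.844% of all genes, with a mean rank of 22.6. FOXK2 had that pattern within 2.5 kb, and PCGF5 within 1 kb of any start. Within 10 kb of the 5′ end, no peak was found for AEBP2, PHF19, EPOP, EZHIP, PCGF5, BCOR, BCORL1, AUTS2, FBRSL1 and USP7. Like EED, FBRSL1 had a peak within 1 kb of another transcript start in all 5 libraries. AEBP2, PHF19, PCGF5, BCOR and USP7 had such a peak in some of the libraries, and EPOP, EZHIP, BCORL1 and AUTS2 in none. By group, 0 of 8 PRC2 accessory genes, 5 of 26 other PRC1 genes, 1 of 8 genes of the deubiquitinase complex PR-DUB, 1 of 3 of the DNA-binding complex PhoRC and 0 of 2 lysine 27 demethylase genes had a peak in all 5 libraries within 1 kb, beside 21.3% of all genes. Within 2.5 kb, 2 of 8 PRC2 accessory genes did, beside 25.6%.

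Patterns across the 5 libraries were taken as log2 of the bases within 2.5 kb plus 1. Among the 47 other Polycomb genes, those of RYBP, FOXK2 and KDM6A were nearest to that of EZH2. Their mean absolute differences from EZH2 were close to each other, at 2.09, 2.1 and 2.13. RYBP had 319, 233 and 0 bases in control and 305 and 159 in HA-Bcl-xL libraries, so control replicate 2 set it apart from EZH2. Among the same 47 genes, PHC3, a subunit of canonical PRC1, was nearest to RNF2, at 0.59. PHC3 had 364, 137 and 156 bases in control and 273 and 0 in HA-Bcl-xL libraries, and so was also without a peak in HA-Bcl-xL replicate 3. L3MBTL2 (1.8) and PCGF6 (1.86) came next, and both had peaks in all 5 libraries.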

How the data were processed

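H3K4me3 and IgG CUT&RUN peak lists of 11 BON1 libraries were used, 1 narrowPeak list per library. The submitters' processing notes name bcl2fastq 2.20, Trimmomatic 0.36, Bowtie2 2.2.9, MACS2 2.1.1, deepTools 3.5.1 and hg19. The handling of duplicates and multiply placed reads is not given in the sources used here. Per peak the authors deposited a score, a fold enrichment (ratio), -log10 p, -log10 q and summit offset, used only within a list. No deposited -log10 q was below 2.

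GENCODE release 44 on GRCh37 gave the starts for peaks of chromosomes 1 to 22, X and Y. After 27 records with repeated names were dropped, 20136 protein-coding genes remained. A gene was called with at least 1 bp of a peak inside the window. Summit fragments were solved as the whole number n for which fold is (n + 1) / (background + 1) and p a Poisson tail. That arithmetic is inferred. All 71 member peaks were solved within 0.001, and 2 of them had another number within 0.01. Widths were fitted with limma 3.58.1 (R 4.3.3), libraries centred on their medians. Window counts, summit fragments and the width fit were tested on simulated data, where the fit missed most of the smaller width changes that had been put in. Sequences came from GRCh37. Python 3.11.15, numpy 2.4.6, pandas 2.3.3, scipy 1.17.1 and matplotlib 3.10.9 were used.

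The members and lists were chosen with earlier results of these data known. All members are named. Of the 47 other Polycomb genes, those called throughout 1 line and nowhere in the other, the 3 of highest mean rank among those called in all 5 libraries, those without a peak within 10 kb and the 3 most like EZH2 or RNF2 are named. Alternatives were other windows, starts, thresholds, list lengths, centring and merging, a summit rule, removal of IgG overlaps, each library left out and the replicate number as a block. The first H3K4me3 replicate of HA-Bcl-xL cells was not analysed here.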

Additional observations from a re-analysis of the deposited data

Results flagged for a closer look

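Peaks outside the chromosomes used for the comparisons appeared on the 7 alternative contigs of chromosome 6, which hold other versions of the region of RING1. The H3K4me3 libraries had 135, 75 and 77 peaks there in control, against 127 and 89 in HA-Bcl-xL. The IgG libraries had at most 1. The lowest H3K4me3 library, with 75, was thus above every IgG library. Whether any of these peaks belongs to RING1 was not analysed here.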

How the results depend on the processing

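Of 69 recomputed values, 49 were classed as the same, 20 moved and 0 reversed. The class was set by the spread between libraries, by the threshold or the number of genes passing it, or by a ratio of counts for members in all libraries. Some values could not change. No member had an IgG peak, so leaving out an IgG library or removing IgG overlaps returned the main value. The difference of 1.67 members between the lines was 2.33 at a -log10 q of at least 5, 0 within 2.5 kb, 0.83 within 10 kb and 1 at any transcript start. The surplus over IgG in control cells, 3.33 members, was 1.67, 6, 6.67 and 5 under the same settings in that order. In HA-Bcl-xL cells, 5 members became 4, 6, 7.5 and 6. Of all genes, means of 33.6% in control and 37.3% in HA-Bcl-xL H3K4me3 libraries were called within 1 kb. These were 38.9 and 42.6% within 2.5 kb, and 40.7 and 44.9% within 1 kb of any start. The 1 member with a peak in all libraries (21.3% of all genes) became 3 within 2.5 kb (25.6%), 4 within 10 kb and 2 at any transcript start (26.5%). Leaving out each library gave differences of 1.5 to 2 members between the lines, 3 to 3.5 over control IgG and 5 over HA-Bcl-xL IgG. It gave 1 to 2 members in all libraries, where without HA-Bcl-xL replicate 3 RNF2 joined RBBP4.

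For width, 0 genes passed with other windows, starts, thresholds, list lengths, merging or no centring by limma, with 126 to 269 at an unadjusted p under 0.05. Without centring, the median log2 difference of all genes was 0.10 and that of RBBP4 was -0.44. Leaving out a library gave 0 to 9 genes: 1 without control replicate 2, 3 without HA-Bcl-xL replicate 2 and 9 without HA-Bcl-xL replicate 3. In the last pair of fits the lone HA-Bcl-xL library was assumed to vary like the controls. The log2 difference of RBBP4 stayed negative throughout, at -0.93 to -0.29 with a library left out. With the replicate number as a block, 13 genes passed, and the log2 difference of RBBP4 was -0.93 (limma adjusted p 0.811). The block gave a difference of 2 members between the lines. Deviations of same-numbered libraries from their group means, in centred widths, correlated at 0.026 and 0.048 for numbers 2 and 3. Centring removes shifts of a whole library, and with 2 HA-Bcl-xL libraries their deviations mirror each other. Whether libraries of the same number share a culture or batch therefore cannot be told. The cause of these changes was not tested.

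Peaks rest on few fragments, so a missing peak is not read as a missing mark.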

Other observations

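Genes of the opposing H3K4 machinery were read in the same way, as a description without a test. Within 1 kb, a mean of 73.3% of the methyltransferase list and 40.0% of the demethylase list was called per library, beside 40.0% of the Polycomb members and 35.1% of all genes. Of 12 H3K4 methyltransferase and core subunit genes, 10, 9 and 6 were called within 1 kb in control, against 9 and 10 in HA-Bcl-xL. Of these genes, 4 had it in all 5 libraries, beside 21.3% of all genes, and 7 within 2.5 kb, beside 25.6%. Of 8 H3K4 demethylase and CtBP corepressor genes, 3, 3 and 3 had a peak within 1 kb in control and 4 and 3 in HA-Bcl-xL libraries, and 3 had it in all 5. Of the 2 lysine 27 demethylase genes, KDM6A was called in 0 libraries and KDM6B in 1 within 1 kb, and each in 2 libraries within 2.5 kb. Within 1 kb of any start, KDM6B was called in all 5 libraries and KDM6A in 1.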
